A study of Drosophila melanogaster with 3 samples.

Results

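The genes described here encode the Drosophila melanogaster proteins with a sequence-specific HMG box: 8 Sox genes (D, SoxN, Sox21a, Sox21b, Sox14, Sox15, Sox100B and Sox102F), pan and cic. They were taken by name, all 10 were found among 18164 genes of the Ensembl annotation of the dm6 build, and their chromatin was examined for HmgD. The sequencing libraries came from embryos collected at 0 to 24 h, both sexes pooled, of a transgenic line carrying HmgD fused to GFP at its C terminus, and the fusion protein was precipitated with an antibody against GFP. All 3 biological replicates belong to the same group and nothing was set against it, so the values are descriptions without a test, given with the spread between replicates. The labels do not say which promoter drives the transgene.

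The HMG box is a small DNA-binding fold that sits in the minor groove and bends the helix. HmgD, an abundant chromatin protein of the early embryo, uses it with little preference for sequence. The proteins of the Sox family, Pangolin (the product of pan, the fly TCF factor of Wnt signalling) and Capicua (the product of cic, a repressor relieved by receptor tyrosine kinase signalling) use it to read short words in DNA. D acts early in segmentation, D and SoxN act in the central nervous system, and Sox14 responds to ecdysone and acts at metamorphosis.

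HmgD candidate peaks came in ranked lists, and a stricter list held the 2964 peaks that passed the irreproducible discovery rate (IDR) step. The pooled candidates were deposited as peaks and background, so a candidate need not be an enriched site. The lowest signal in the IDR list was 114.7, and the highest pooled signal outside it was 114.6. The IDR list thus held the pooled candidates of highest signal. A place in it does not show that the replicates agreed at that site. A peak was given to a gene when its summit, the highest point, lay in the gene body or within 5 kb of it. By this rule 8 of the 10 genes had an IDR peak, and D and Sox15 had none. Of all genes, 39.0% met the same rule, and of all protein-coding genes 42.5%. The rule takes in more sequence for longer genes: 35.0% of genes under 5 kb, 54.6% of genes of 5 to 20 kb and 56.6% of genes over 20 kb were called. The HMG-box genes had 2 of 3, 3 of 4 and 3 of 3 called in these length classes, beside 38.1%, 55.2% and 57.0% of protein-coding genes. Embryos were taken whole, so binding in few cells and weak binding in many cells cannot be told apart in any of the signals. Among the strongest 2964 candidates of each replicate, 8, 8 and 10 of the 10 genes were called, a mean of 8.67 ± 1.15 (SD, n = 3), while 40.6%, 38.1% and 37.3% of all genes were. SoxN and Sox15 were missing in replicate 1, and D and cic in replicate 2. The IDR list was also replaced by candidates strong in 2 replicates at a time. Then 7 genes were called without replicate 1, 7 without replicate 2 and 5 without replicate 3. Those lists held 1726, 1541 and 1808 candidates, and by them 25.9%, 24.9% and 28.8% of all genes were called. Sox14, Sox21a, Sox21b, Sox100B and pan were called each time. SoxN and Sox102F were lost without replicate 2 and without replicate 3, cic without replicate 1 and without replicate 3, and D was gained without replicate 2.

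**Figure D1:**
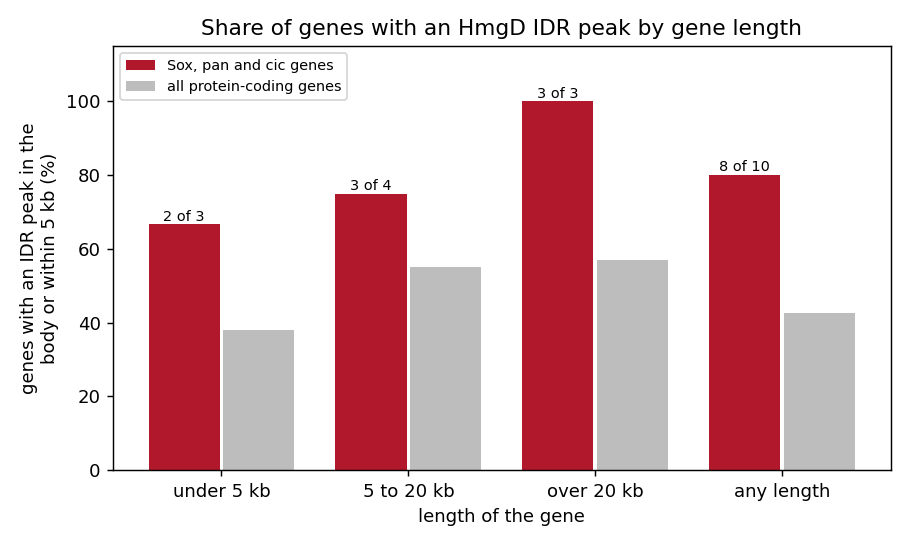
Share of genes (%, vertical axis) with an IDR peak in the body or within 5 kb, by gene length (horizontal axis), for the Sox, pan and cic genes (red, counts above the bars) and all protein-coding genes (grey). The counts were 2 of 3, 3 of 4 and 3 of 3 in the length classes and 8 of 10 in all, beside 42.5% of all protein-coding genes.

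The 8 genes had 11 distinct IDR peaks between them, 10 of which lay outside every annotated gene body. The exception was in the 5' untranslated sequence of cic. Of all IDR peaks, 44.6% lay outside gene bodies. The nearest transcription start site (TSS) belonged to an HMG-box gene at 7 of the 11 peaks and to a neighbour at 4. Counted in this way, 7 of the 10 genes had the TSS nearest to an IDR summit, beside 13.7% of all genes and 16.3% of protein-coding genes. Within 500 bp of a TSS of its own, an IDR peak was found at SoxN, Sox21b and Sox14. That is 3 of 10 genes, beside 15.5% of all genes and 18.7% of protein-coding genes. This count takes in any annotated TSS of a gene. Counted by start site, 4 of the 21 annotated TSSs of the 10 genes had an IDR peak within 500 bp, beside 14.7% of all annotated TSSs. With weaker candidates included, all 10 genes had a candidate in their windows, beside 84.2% of all genes.

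The sequence around the strongest IDR peak of 5 loci is printed to let the sites be compared, read 5′ to 3′ on the forward strand of Release 6 of the RefSeq genome. Sequence annotated as untranslated was left out. This shortened the pan window, where the sequence left out was that of the neighbouring gene RpS3A. Capitals mark the words searched for, on either strand, so a word may stand as its reverse complement. A common word bound by proteins of the Sox family is AACAAT. A further word known from the binding sites of that family, which can overlap it, is ACAATG. Proteins of the Sox and TCF families alike have been found to bind the word ACAAAG. Sites of Pangolin often hold the somewhat longer word spelled ATCAAAG. The repressor Capicua reads TGAATGAA. TATCGATA, the Dref element, contains CGATA, read by BEAF-32. The core promoter word GGTCACAC and the run AAAAAAA were searched as well.
Sox21a and Sox21b, chr3L:14111540-14111740: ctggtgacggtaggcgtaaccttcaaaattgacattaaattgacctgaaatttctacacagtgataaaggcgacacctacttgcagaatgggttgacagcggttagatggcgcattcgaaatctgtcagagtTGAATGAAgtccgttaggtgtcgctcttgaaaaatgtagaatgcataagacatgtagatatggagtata
pan, chr4:67208-67339: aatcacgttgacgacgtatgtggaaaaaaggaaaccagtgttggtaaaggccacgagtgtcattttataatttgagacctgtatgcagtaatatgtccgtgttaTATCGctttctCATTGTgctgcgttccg
Sox100B, chr3R:31086470-31086670: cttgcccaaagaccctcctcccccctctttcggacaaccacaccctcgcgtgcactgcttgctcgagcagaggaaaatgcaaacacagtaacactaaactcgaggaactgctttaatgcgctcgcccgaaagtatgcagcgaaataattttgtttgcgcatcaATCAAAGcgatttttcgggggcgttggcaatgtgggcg
Sox102F, chr4:834971-835171: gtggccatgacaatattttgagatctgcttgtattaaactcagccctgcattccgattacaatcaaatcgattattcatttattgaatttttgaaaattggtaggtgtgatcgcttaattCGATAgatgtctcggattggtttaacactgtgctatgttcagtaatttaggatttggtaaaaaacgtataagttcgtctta
SoxN, chr2L:8825441-8825641: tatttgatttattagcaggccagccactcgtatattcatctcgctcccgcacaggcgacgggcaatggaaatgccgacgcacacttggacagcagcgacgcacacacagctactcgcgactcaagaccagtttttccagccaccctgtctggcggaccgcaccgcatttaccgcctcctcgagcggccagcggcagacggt

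These windows shared few of the words. The window between Sox21a and Sox21b held TGAATGAA, found within 100 bp of 1.32% of all IDR summits and 1.48% of the candidates not kept. The window downstream of Sox100B held ATCAAAG, present at 2.7% of all IDR summits and 2.85% of the other candidates. The pan window held ACAATG and CGATA. Its summit lay 32 bp upstream of the RpS3A TSS and 2087 bp upstream of that of pan. The window of Sox102F held CGATA, and that of SoxN held none of the words searched. The words in the pan window stand as TATCG and CATTGT. Over all 11 IDR peaks, any of the 3 Sox-type words was within 100 bp of 2 summits, with 34.1% of all IDR summits and 32.5% of the other candidates holding one. CGATA was at 4 of the 11 summits and at 39% of all IDR summits. Neither TATCGATA (8.16% of all IDR summits) nor GGTCACAC (7.15%) was within 100 bp of any of the 11 summits. A word in a window is a match of letters and not evidence that the factor binds there. The GC content of the 11 windows ran from 33.8% at Sox102F to 58.7% at SoxN, with a median of 44.8%, beside a median of 41.8% over all IDR peaks. The SoxN window exceeded 97.6% of all IDR peaks in GC content, and the Sox102F window exceeded 9.95%.

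Among the genes of the SoxB group, D (Dichaete, FBgn0000411, 3L 14175610 to 14178620, reverse strand) had 10 candidates in the pooled list and no IDR peak. Its strongest candidate, at 3L 14177509 to 14177912, had a pooled signal of 111.9, just under the lowest signal kept (114.7). Signal is the authors' own value, on a different scale in each list, so replicates are compared by rank within their own lists of 28193, 30000 and 30000 candidates. The D candidate ranked 3103 in the pooled list, and 2891, 11103 and 1734 in replicates 1, 2 and 3. Replicates 1 and 3 thus placed it among their strongest 2964 and replicate 2 did not. Its summit lay 174 bp upstream of the inner of the gene's 2 annotated start sites, and the other 9 candidates were weaker, at 39.3 to 64.0.

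SoxN (SoxNeuro, FBgn0029123, 2L 8825645 to 8829670, forward strand) is expressed with D in the neural primordium and partly overlaps it in function. It had a promoter IDR peak at 2L 8825339 to 8825742, with a signal of 122.5 and a pooled rank of 2612, 104 bp upstream of its annotated TSS. The peak ranked 7601, 2206 and 1502 in replicates 1, 2 and 3, at a mean rank percentile of 86.9 ± 12.1 (SD, n = 3), where 100 would be the top of the list. Replicate 1 stood below the others. Replicates 1 and 2 had their strongest SoxN summit 64 bp and 23 bp past the TSS, while the strongest of replicate 3 was another candidate, 243 bp upstream of it, at rank 656. The remaining 5 pooled candidates at SoxN had signals of 37.3 to 59.56.

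Sox21a and Sox21b lie side by side on 3L in the same orientation, 4286 bp apart, so their windows overlap and share 5 candidates. Sox21a (FBgn0036411, 3L 14103481 to 14108118) acts in intestinal stem cells of the adult. The peak between the genes, at 3L 14111438 to 14111841, had a signal of 335.5 and a pooled rank of 150. It ranked 181, 152 and 237 in replicates 1, 2 and 3, a mean percentile of 99.4 ± 0.142 (SD, n = 3). The 3 replicates thus placed it near the top alike. The summit lay 3522 bp upstream of the Sox21a TSS and 19657 bp downstream of the nearest Sox21b start. At the Sox21a promoter itself the candidate 133 bp upstream of the TSS had a signal of 75.01 and was not kept.

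Sox21b (FBgn0042630, 3L 14112405 to 14131324) had a further IDR peak at its own promoter, at 3L 14131588 to 14131991, 466 bp upstream of its outer TSS. Its signal was 144.9, its pooled rank 1818, and its ranks in replicates 1, 2 and 3 were 3276, 1192 and 2588. D lies in the same region, with 44.3 kb between it and Sox21b. From 5 kb below Sox21a to 5 kb beyond D, 33 candidates were listed, and the 2 IDR peaks were those described. Between the windows of Sox21b and D there were 7 candidates and no IDR peak.

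**Figure D2:**
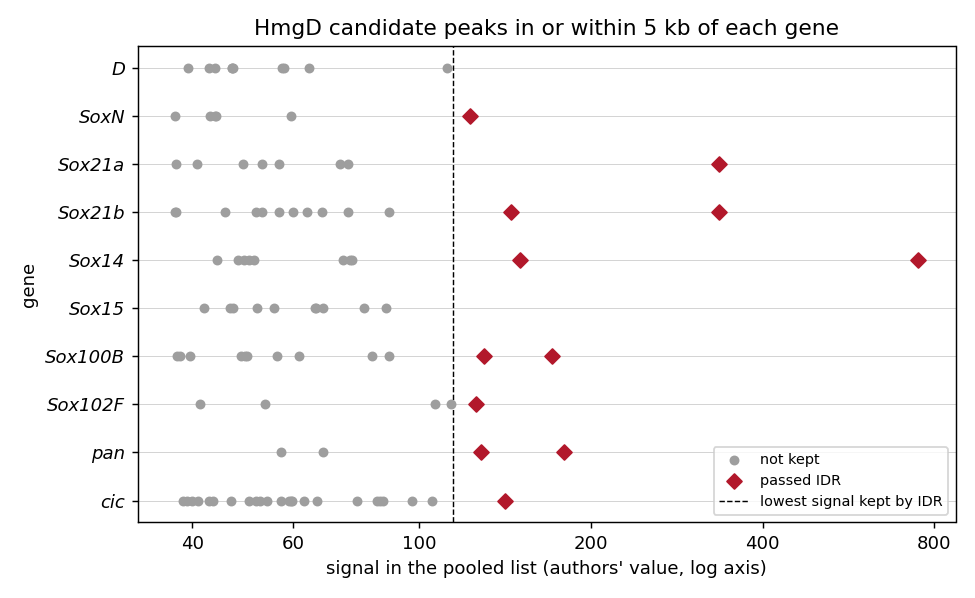
Signal of each pooled candidate (horizontal log axis, the authors' value) in or within 5 kb of each gene (vertical axis), red diamonds passing IDR and grey circles not kept, with the lowest kept signal of 114.7 dashed. Sox14 and the site between Sox21a and Sox21b stand to the right, and D and Sox102F have candidates just left of the line (111.9 and 113.6).

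The strongest HmgD site of the family was at Sox14 (FBgn0005612, 2R 23978801 to 23985177, forward strand), the SoxC gene that ecdysone induces and that is needed for pruning of neurites at metamorphosis. The peak at 2R 23978414 to 23978700 had a signal of 749.7 and ranked 21 of 30000 pooled candidates. It ranked 35, 27 and 7 in replicates 1, 2 and 3, so all replicates had it near the head of their lists. The summit lay 246 bp upstream of the outermost of 3 annotated start sites. At 287 bp it was the only one of the 11 narrower than 404 bp, the width of the widest peaks, which 8.2% of all IDR peaks fell short of. The strongest candidate at Sox14 exceeded the strongest candidate at 99.6% of all genes and at 99.1% of genes of 5 to 20 kb.

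A further IDR peak in the Sox14 window, at 2R 23988281 to 23988684 with a signal of 149.9, was 28 bp upstream of the TSS of Phm, which encodes an enzyme of neuropeptide amidation. It ranked 2372, 1904 and 2885 in replicates 1, 2 and 3, with a mean percentile of 91.9 ± 1.65 (SD, n = 3). It was 8588 bp from the nearest Sox14 start. The other 8 candidates at Sox14, at 44.1 to 76.06, included 4 inside the gene.

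Sox15 (FBgn0005613, 2R 14201390 to 14212413, reverse strand), the SoxF gene, which acts in the wing and in sensory organs, had 10 candidates and no IDR peak. The strongest in the pooled list, at 2R 14214747 to 14215150, had a signal of 87.51, a rank of 5091, and a summit 2536 bp upstream of the TSS. It ranked 8726 in replicate 1 and 2176 in replicate 2, and replicate 3 had no candidate matched to it. In replicate 3 the strongest candidate was instead 284 bp upstream of the TSS and ranked 2192. In replicate 1 it was 4178 bp upstream and ranked 3063. The pooled summit matched to it lay inside a neighbouring gene, 4 bp from that gene's TSS. The strongest pooled candidate was likewise nearest to another gene's TSS, 874 bp away. The replicates thus differed in which site in the Sox15 window was highest. Of these sites, only that of replicate 3 had the Sox15 TSS nearest. The strongest pooled candidate at Sox15 exceeded that of 47.9% of all genes and that of 30.6% of genes of 5 to 20 kb.

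Sox100B (FBgn0024288, 3R 31065253 to 31083407, forward strand) is the SoxE gene and acts in the male gonad. Its IDR peaks flanked the gene and were nearer to other genes' start sites. The stronger lay downstream, at 3R 31086368 to 31086771, 21317 bp from the Sox100B TSS and 10751 bp from the nearest TSS, that of CG11317. Its signal was 170.8, and it ranked 1865, 2233 and 1082 in replicates 1, 2 and 3. The weaker, at 3R 31061305 to 31061708 with a signal of 129.9, was 297 bp upstream of the TSS of dco, the gene for the casein kinase Doubletime, and 3746 bp upstream of that of Sox100B. It ranked 1400, 2345 and 16075 in replicates 1, 2 and 3, the widest spread among the 11 peaks, at a mean percentile of 77.9 ± 27.3 (SD, n = 3). Replicate 3 stood far below the others there. Near the Sox100B TSS itself the candidate 230 bp inside the gene had a signal of 37.65, matched in replicate 1 alone.

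Sox102F and pan lie on the small chromosome 4, which held 22 of the 2964 IDR peaks, and 3 of those 22 were in the windows of these 2 genes. Of the 118 genes on chromosome 4, 36.4% had an IDR peak by the same rule. Sox102F (FBgn0039938, 4 800436 to 834393, reverse strand) is the SoxD gene and acts in neurons. Its IDR peak at 4 834869 to 835272 had a signal of 125.6 and a pooled rank of 2476, and its summit was 678 bp upstream of the outermost of 3 annotated start sites. It ranked 1500, 4820 and 5833 in replicates 1, 2 and 3, so it was among the strongest 2964 in replicate 1 alone. The neighbouring candidate 66 bp inside the gene was just under the kept level at 113.6. That candidate ranked 2195 in replicate 2 and 2070 in replicate 3 and had no match in replicate 1. The replicates thus put the higher point at Sox102F on different sides of the TSS.

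The pan gene (FBgn0085432, 4 69326 to 114270, forward strand) is 44.9 kb long, with 9 annotated transcripts from 4 start sites. Its own upstream IDR peak, at 4 68562 to 68965 with a signal of 128, lay 562 bp before its outermost TSS. It ranked 3531, 1454 and 5132 in replicates 1, 2 and 3. The other, at 4 67037 to 67440 with a signal of 179.1, was 32 bp upstream of the TSS of the divergently placed ribosomal protein gene RpS3A and 2087 bp from that of pan. It ranked 639, 2247 and 1252 in replicates 1, 2 and 3, among the strongest 2964 of each. The pan window held 4 candidates in all, and a single one, 20 bp past the TSS with a signal of 67.74, was in the gene body. That is 0.728 candidates per 10 kb of window, and Sox102F had 1.14. The median was 2.09 over protein-coding genes over 20 kb and 0.579 over the 13 such genes on chromosome 4.

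The cic gene (FBgn0262582, 3R 20252770 to 20303942, forward strand) is 51.2 kb long and had 24 candidates, the most in the family, of which 20 lay in its body. Those not kept had signals of 38.5 to 105.4 and may include background. Per 10 kb of window cic had 3.92 candidates, beside the median of 2.09 over protein-coding genes over 20 kb. The highest value in the family was 7.69, at D, beside a median of 3.68 over protein-coding genes under 5 kb. The cic IDR peak at 3R 20253170 to 20253573 had its summit 602 bp past the outermost of 3 annotated start sites. This peak had a signal of 141.2 and a pooled rank of 1926. It ranked 903, 8236 and 1604 in replicates 1, 2 and 3, a mean percentile of 88.0 ± 13.4 (SD, n = 3). Replicate 2 stood below the others, and its strongest candidate at cic was 1122 bp past the same TSS, at rank 3225. That site had a pooled signal of 105.4 and was not kept. At the inner promoter of cic, about the start sites at 3R 20293044 and 20293244, the nearest candidate had a signal of 85.44.

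**Figure D3:**
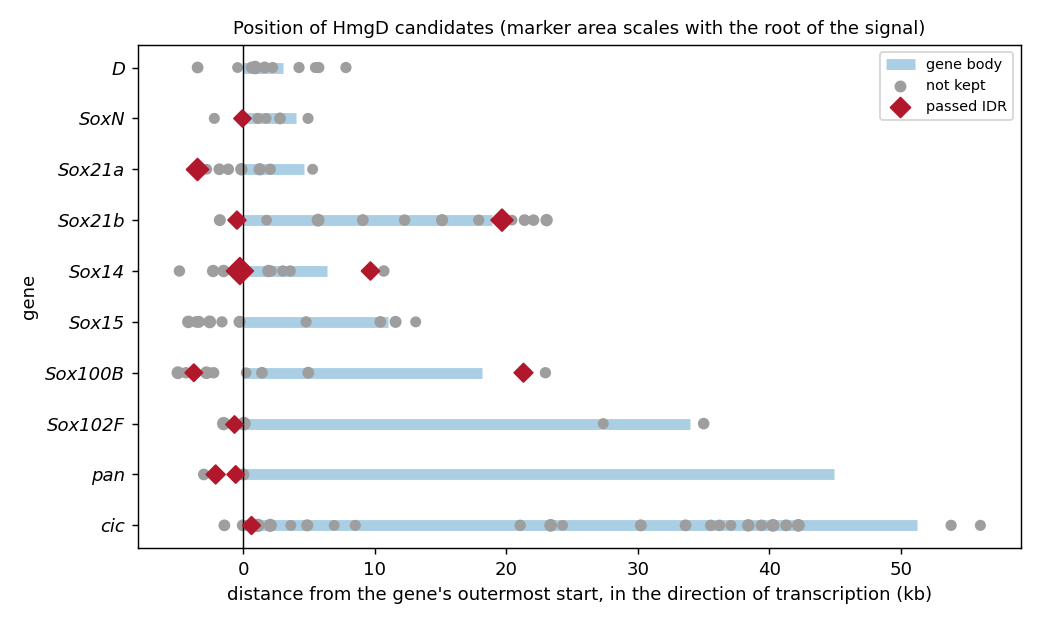
Summits of pooled candidates by distance from each gene's outermost start (kb, horizontal axis, positive in the direction of transcription), with the gene body in blue, IDR peaks as red diamonds and other candidates as grey circles. The diamonds lie before the gene bodies, beyond them or, at cic, just inside. The 44.9 kb body of pan holds 1 candidate and that of cic 20. The pan window had 0.728 candidates per 10 kb, beside a median of 0.579 over protein-coding genes over 20 kb on chromosome 4.

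An IDR summit in the gene body was found at cic and not at pan or Sox102F, beside 33.1% of all genes over 20 kb and 7.60% of all genes. The 4 genes Sox21b, Sox14, Sox100B and pan had 2 IDR peaks in their windows. Of all genes 13.2% had 2 or more, and of genes over 20 kb, such as pan, 27.3% had. Sox21b, Sox14 and Sox100B are 5 to 20 kb long, a class whose share is not given here. In each of the 4 genes, at least 1 of the peaks was nearest to a TSS of another gene.

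The 11 IDR peaks had a median signal of 145, beside 158 for all IDR peaks, and all 11 had a matching summit within 200 bp in each of the 3 replicates, beside 90.1% of all IDR peaks. The median of their mean rank percentiles was 91.9, beside 92.9 for all IDR peaks. The median SD over replicates was 3.85 percentile points, beside 3.41. Of the 11, 5 were among the strongest 2964 in all 3 replicates (42.4% of all IDR peaks), 4 in 2 replicates (34.8%) and 2 in a single replicate (21.2%). The last 2 were the Sox102F peak and the pan peak 562 bp before its TSS. The peaks and these ranks come from the same replicates, so the ranks are no independent measure. For 4 genes, SoxN, Sox21a, Sox21b and Sox14, the strongest candidate of each replicate lay within 200 bp of the strongest pooled candidate.

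By location, the 97 distinct candidates of these genes comprised 27 in intergenic sequence, 24 at promoters, 24 in introns, 21 in coding sequence and 1 in 5' untranslated sequence. None of the 24 in introns or the 21 in coding sequence was kept. Of the 11 IDR peaks, 6 were at a promoter of any gene, 4 were intergenic and 1 was in 5' untranslated sequence. Of all IDR peaks, 71.1% were at promoters, 8.54% intergenic and 0.776% in 5' untranslated sequence. A further 17.7% of all IDR peaks lay in introns and 0.675% in coding sequence. The number per gene ran from 4 at pan to 24 at cic, with a median of 10. The 86 candidates not kept at the 10 genes had a median signal of 53.3, beside 50.9 for all candidates not kept, and 20.9% of them were matched in 3 replicates, beside 17.3%.

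**Figure D4:**
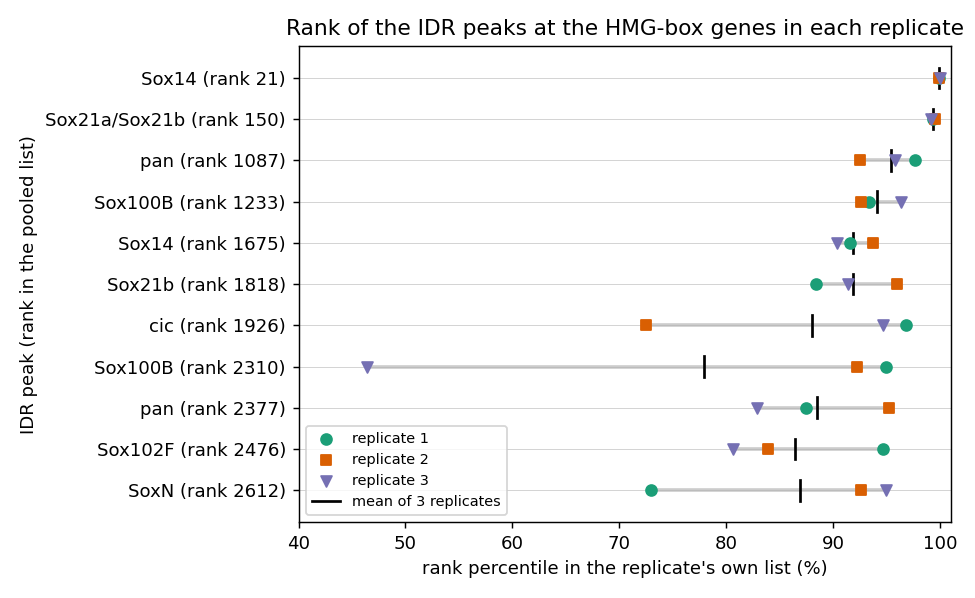
Rank percentile (%, horizontal axis) of the 11 IDR peaks in each replicate's own list, ordered by pooled rank, with replicates as symbols, the mean as a black bar and the range in grey. The Sox14 promoter peak and the site between Sox21a and Sox21b are tight at the right, and the cic, SoxN and dco-side Sox100B peaks each have 1 replicate far to the left (72.5, 73.0 and 46.4).

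Genes that act with these factors were examined by the same rule, in which the peak may lie at a neighbour's promoter. In the Wnt pathway that ends at Pangolin, 17 of 18 genes had an IDR peak in or within 5 kb, beside 39.0% of all genes, and 9 of 18 had one at their own promoter, beside 15.5%. The median length of these 18 genes was 12.5 kb, in the class where 54.6% of all genes were called. The strongest were at gro, the corepressor gene Groucho (signal 371, 113 bp upstream of its TSS), sgg, the GSK3 kinase gene (362.3, promoter), and fz, a Wnt receptor gene (293.7, in an intron). In the Torso and EGFR pathway that acts on Capicua, 10 of 18 genes had an IDR peak, beside 39.0% of all genes, and 8 a promoter peak, beside 15.5%. Their median length was 4.78 kb, in the class where 35.0% of all genes were called. The strongest were at the kinase gene Raf (593.2, intronic, 1 of 11 IDR peaks in its window), the GTPase gene Ras85D (397.7, at a neighbour's promoter) and gro. Of the genes that work with or under SoxB factors in the nervous system, 7 of 14 had an IDR peak, beside 39.0% of all genes. At 4 of the 14 an IDR peak was at the gene's own promoter, beside 15.5% of all genes. The 14 genes had a median length of 7.68 kb, in the class of 54.6%. They were led by the RNA-binding protein gene elav (254.7), the homeobox gene Dr (219.3) and the midline regulator sim (181.5).

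Ecdysone and pruning genes around Sox14 had 6 of 8 called, beside 39.0% of all genes, led by the receptor gene EcR (433.7, in an intron) and the early response genes Eip75B (292.9) and Eip74EF (191.2, at a neighbour's promoter). The median length of this list was 63 kb, in the class where 56.6% of all genes were called. Own-promoter peaks were at 2 of these 8 genes and at 2 of the 8 in the next list, beside 15.5% of all genes. Stem cell genes around Sox21a, of a median length of 12.2 kb, had 3 of 8 called, beside 39.0% of all genes and 54.6% of genes of 5 to 20 kb. These were N, the Notch receptor gene (198), the JAK/STAT transcription factor gene Stat92E (185.5) and the cytokine gene upd2 (150.6). Against these, the Sox14 promoter signal of 749.7 exceeded the highest value of all 5 lists.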

How the data were processed

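Chromatin immunoprecipitation followed by sequencing was done on 3 biological replicates of HmgD-GFP embryos, and chromatin was sonicated to 200 to 800 bp, per the labels. Per the file descriptions deposited with the samples, candidate peaks were derived from each replicate's alignment and from the 3 pooled, with 1 further file whose kind is not described, and the IDR list from those lists. The aligner, the peak caller and the threshold of the IDR step are not named in the sources used here. The deposited signal per peak is the authors' value, used to rank and describe within a list. The −log10 q per peak, also deposited by the authors, was not used. The lists hold no read counts, so depth is unknown, and background at accessible chromatin was not tested, since no control data were used here.

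The dm6 lists were read with 1-based coordinates against Ensembl release 115 and the RefSeq Release 6 genome, without transposable elements. The dm3 lists were not used here. Summits were matched when mutually nearest within 200 bp, and a rank percentile is the share of a list's entries ranked below. Promoters were 500 bp either side of a TSS. The strongest candidates of a replicate are as many as the IDR list holds. Identical summits made up 0.518% to 0.86% of the shorter list between replicates.

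The genes, partner lists and words were chosen with earlier results of these data known. Named are the 10 genes, the genes whose TSS is nearest to their IDR peaks and, in each partner list, the 3 genes with the IDR peak of highest signal. In the lists, phl and Dl were read as Raf and Delta, their names in the annotation. Sequences were taken for the strongest IDR peak of genes not on 2R, in order of signal, and the cic window, wholly untranslated sequence, was left out. Alternatives changed the gene window, the use of summits, the IDR list, the promoter and word windows, the matching and the replicates. The functions for assignment, matching and words were tested on simulated data. Python 3.11.15, numpy 2.4.6, pandas 2.3.3 and matplotlib 3.10.9 were used.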

Additional observations from a re-analysis of the deposited data

How the results depend on the processing

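The count of 8 genes with an IDR peak depended on the window. It was 1 (cic) with the gene body alone, 6 with 1 kb, and 8 with 10 kb or with any overlap of the peak, while all genes were at 7.6%, 22.5%, 51.7% and 39.6%. The 11 IDR peaks became 1 with the gene body alone, 7 with 1 kb and 12 with 10 kb. With the 1482 stronger IDR peaks, 5 genes and 4 peaks were left, 1 of the genes at its promoter, and 23.6% of all genes. Counting peaks by the nearest TSS, a choice made after seeing the data, gave 7 genes, 7 peaks and 13.7% of all genes. A promoter window of 1000 bp gave 6 genes with a promoter peak and one of 250 bp gave 2. The share of all genes with a promoter peak is not given for these windows, for the stronger peaks or with a replicate left out. Those promoter counts thus have no background beside them. Leaving out a replicate, with the IDR list replaced by the 1541 to 1808 pooled candidates matched to the strongest 2964 of each of the other two, gave 5 to 7 genes, 6 to 8 peaks, 1 to 4 genes with a promoter peak and 24.9% to 28.8% of all genes. Sox-type words were at 0 of the 11 summits within 50 bp, beside 17.1% of all IDR summits, and at 4 within 200 bp, beside 60.1%. The median rank percentile, 91.9, ran from 91.0 to 93.7 over the left-out replicates and stayed at 91.9 with other matching rules. The cause of these shifts was not tested. No paired analysis was possible because there was 1 group. Unknown depth limits what a missing candidate shows.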
